A study of Homo sapiens with 8 samples.

Results

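Basic helix-loop-helix (bHLH) transcription factors were followed in AB8/13 cells, an immortalised line derived from human podocytes, after knockdown of ATOH8, itself a bHLH factor. The set held 34 of the 60564 genes in the count table, and its members were found by matching Ensembl identifiers to the symbols of a fixed list. The list held ATOH8, the E proteins and a selection from the MYC and MAX network, the PAS factors, the HES family and others. Further genes of these families, such as ARNT, AHR and HES1, were outside it. The control group held 4 libraries from cells transfected with a non-targeting shRNA, and the knockdown group held 4 libraries from cells transfected with shRNA against ATOH8. Both groups were grown at 33 °C and kept at 37 °C for 5 days to differentiate, and poly(A) RNA was sequenced. The labels give neither the sequence nor the number of the shRNAs, and they do not say whether the 4 libraries of a group came from separate transfections, so each p-value reflects library-to-library spread only, and that spread may be technical. All libraries come from 1 cell line, and fewer cells expressing a gene cannot be told apart from less RNA per cell.

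A bHLH protein pairs with another through its helix-loop-helix and grips DNA with its basic region at a short palindrome called the E-box, CANNTG. Tissue-restricted factors of the atonal, twist and HAND type mostly pair with the widely expressed E proteins, and ID proteins, which lack the basic region, take E proteins out of action. Factors that also carry a leucine zipper, such as MYC and MAX, prefer the E-box CACGTG, while factors with a PAS domain read out oxygen or keep circadian time, and HES, HEY and DEC factors are repressors. In the kidney, the class II factor TCF21 marks podocytes and is needed for glomerular development.

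The libraries held 21108695 to 27109043 counts each, and 16884 genes had enough counts to be tested. Podocyte markers were present to very different degrees. NPHS1 (nephrin) had at most 2 counts in a control and 6 in a knockdown library, and TCF21 stood at 1.14 CPM (counts scaled to a common library total) in control and 1.35 CPM after knockdown (log2 fold change 0.24, SE 0.214, adjusted p = 0.369). KIRREL1, of the slit diaphragm, had 626 CPM in control and 489 CPM after knockdown (fell), the adaptor gene CD2AP 226.6 and 189 CPM (fell), and the actin-binding SYNPO 17.2 and 24.9 CPM (rose). Of 17 podocyte markers 10 were tested, of which 3 rose and 5 fell, and their summed level ran from 1023 to 1052 CPM in control and from 853 to 903 CPM after knockdown. Markers of other cell types moved as well. Of 7 tested mesangial and pericyte markers 5 rose and 1 fell (summed level 601 to 623 against 684 to 721 CPM), and of 6 tested glomerular endothelial markers 5 rose (29.4 to 33.0 against 49.3 to 53.4 CPM), while PECAM1, which defines endothelium, had 1 count in all 8 libraries together. Of 7 tested parietal epithelial markers 3 rose and 2 fell (1811 to 1855 against 2011 to 2085 CPM), of 2 tested proximal tubule markers 1 rose and 1 fell (4.54 to 7.17 against 2.50 to 2.83 CPM), and of 3 tested leukocyte markers 2 rose (76.5 to 86.4 against 102.6 to 112.6 CPM). CD68, a lysosomal gene not limited to leukocytes, made up nearly all of that last sum (79.3 and 105.8 CPM), PTPRC (CD45), which defines leukocytes, was at 0.028 and 0.0098 CPM, and MS4A1 was at 0 throughout. Single genes also carried most of other sums. KIRREL1 made up most of the podocyte sum (626 and 489 CPM) and MCAM most of the mesangial sum (513 and 502 CPM, not called). EHD3 made up most of the endothelial sum (24.7 and 34.8 CPM) and AQP1 most of the tubular sum in control (5.19 and 1.14 CPM). Over all genes tested, 25.2% were higher and 25.9% lower after knockdown. The part of these markers in the results on bHLH genes was not tested.

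Most of the listed bHLH genes differed between the groups, by small amounts and in both directions. Of 34 members 32 were tested, and 15 rose, 11 fell and 6 did not pass an adjusted p of 0.05 (edgeR quasi-likelihood test, adjusted over all genes). That is 81.2% called, against 51.1% of all genes tested, of which 25.2% were higher and 25.9% lower. High counts make small changes easier to call. Among genes with a mean of at least 10 CPM, 62.1% were called, and 20 of the 25 members at that level were. The members were chosen with earlier results of these data known and include ATOH8, the targeted gene. Outside the list, 3 of 9 tested class II genes and 4 of 7 leucine zipper genes were called. Among further PAS genes 8 of 9 were called, and among further HES and HEY genes 1 of 3. The groups did not overlap for 21 of the 32 members (65.6%), against 45.6% of all genes. The members' median log2 fold change was 0.08 and their median absolute change was 0.23, beside 0.00 and 0.19 over all genes tested. A change of at least 1.5-fold was measured for 4 of the 32 members (ATOH8, MSC, NPAS2 and HAND2) and for 2101 of the 16884 genes tested, about the same share.

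**Figure D1:**
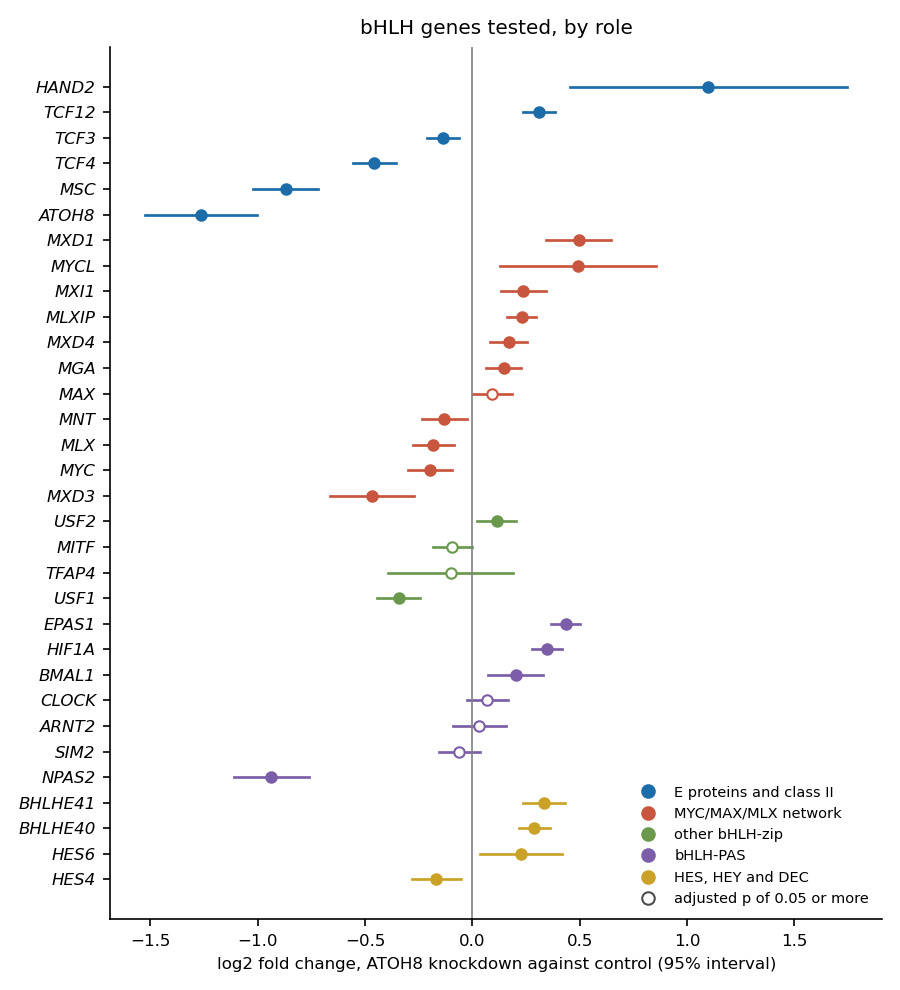
Log2 fold change of each of the 32 tested bHLH genes, ATOH8 knockdown against control, with its 95% interval, grouped by role; filled points passed an adjusted p of 0.05. ATOH8 (-1.26), NPAS2 (-0.94) and MSC (-0.87) lie farthest to the left, and HAND2 (1.10) farthest to the right with the widest interval.

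ATOH8, the gene targeted by the shRNA, was low in control cells and lower still in knockdown cells. It had 6.56, 6.004, 5.80 and 4.97 CPM in control replicates 1 to 4 and 2.19, 2.79, 2.63 and 2.11 CPM in knockdown replicates 1 to 4. The lowest control library lay well above the highest knockdown library. An exact permutation test over libraries gave p = 0.0286, the smallest value that 70 assignments allow. The mean went from 5.83 ± 0.66 to 2.43 ± 0.329 CPM (SD, n = 4), so that 41.7% of the control level remained (log2 fold change -1.26, SE 0.127, adjusted p = 1.78e-09).

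Among the E proteins and the tissue-restricted class II factors that pair with them, the repressor MSC and the E protein TCF4 fell and the E protein TCF12 rose. All 6 of these members, ATOH8 included, passed the test, 2 of them higher and 4 lower, and for all 6 the groups were apart. Over all genes tested 51.1% were called and for 45.6% the groups did not overlap, and ATOH8 is the targeted gene. MSC, the twist-like repressor musculin, had 13.6, 12.9, 13.6 and 13.4 CPM in the control libraries and 7.87, 7.03, 7.23 and 7.13 CPM in the knockdown libraries. No knockdown library reached 8 CPM and no control library fell below 12 CPM. Its log2 fold change was -0.87 (SE 0.074, adjusted p = 5.45e-11), which left 54.7% of the control level. The gene MSC-AS1 on the opposite strand overlaps its exons, had 306 to 409 counts in control libraries against a mean of 334 for MSC, and fell too (log2 -0.62, adjusted p = 8.12e-09). The sources used here do not give the strand setting, so reads of these 2 genes may not be separated.

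The E proteins moved in different directions. TCF4 (E2-2) had 39.0, 36.3, 37.0 and 37.1 CPM in control and 27.4, 25.3, 29.3 and 27.1 CPM after knockdown. Each knockdown library was at least 7 CPM under each control library. The log2 fold change was -0.46 (SE 0.049, adjusted p = 5.86e-09). TCF12 (HEB) had 87.8, 82.5, 87.1 and 79.9 CPM in control and 102.5, 106.8, 102.3 and 106.5 CPM after knockdown. Here all knockdown libraries were the higher ones, with a log2 fold change of 0.31 (SE 0.036, adjusted p = 2.98e-08). TCF3 (E2A), which encodes E12 and E47, went from 68.7 ± 1.21 to 62.6 ± 1.39 CPM (SD, n = 4, log2 -0.14, SE 0.036, adjusted p = 0.00235). Per kb of exon length the summed level of the 3 genes was 21.6 ± 0.593 in control and 22.3 ± 0.412 CPM per kb after knockdown. TCF12 made up 41.4% ± 0.822 of that sum in control and 49.5% ± 0.425 after knockdown, and TCF3 made up 52.4% ± 0.749 and 46.1% ± 0.386. These shares depend on the exon lengths used.

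HAND2, a factor of heart and limb development, was close to the limit of detection. It had 6, 8, 8 and 7 counts in control and 16, 19, 13 and 13 counts after knockdown, or 0.294 ± 0.0652 and 0.628 ± 0.107 CPM (SD, n = 4). The groups did not overlap, and the log2 fold change was 1.10 (SE 0.315, adjusted p = 0.00442). The antisense gene HAND2-AS1 had 2 to 13 counts in control and 5 to 13 after knockdown.

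The ID genes, whose proteins bind E proteins without binding DNA, were higher after knockdown. Of 4 tested, ID1 (4.44 to 10.8 CPM, log2 1.27, SE 0.096), ID3 (20.3 to 30.1 CPM, log2 0.57, SE 0.053) and ID4 (0.841 to 1.31 CPM, log2 0.64, SE 0.232) rose, while ID2 had a log2 fold change of 0.04 (SE 0.105, adjusted p = 0.786). The call for ID4 was lost without control replicate 2 (adjusted p = 0.0896), knockdown replicate 2 (0.0577) or knockdown replicate 3 (0.0898), and DESeq2 did not call it (0.0647). The summed ID level was 18.2 ± 0.531 CPM per kb in control and 29.1 ± 1.72 after knockdown. Summed E protein level over summed ID level was 1.13 to 1.22 in the control libraries and 0.722 to 0.852 in the knockdown libraries.

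**Figure D2:**
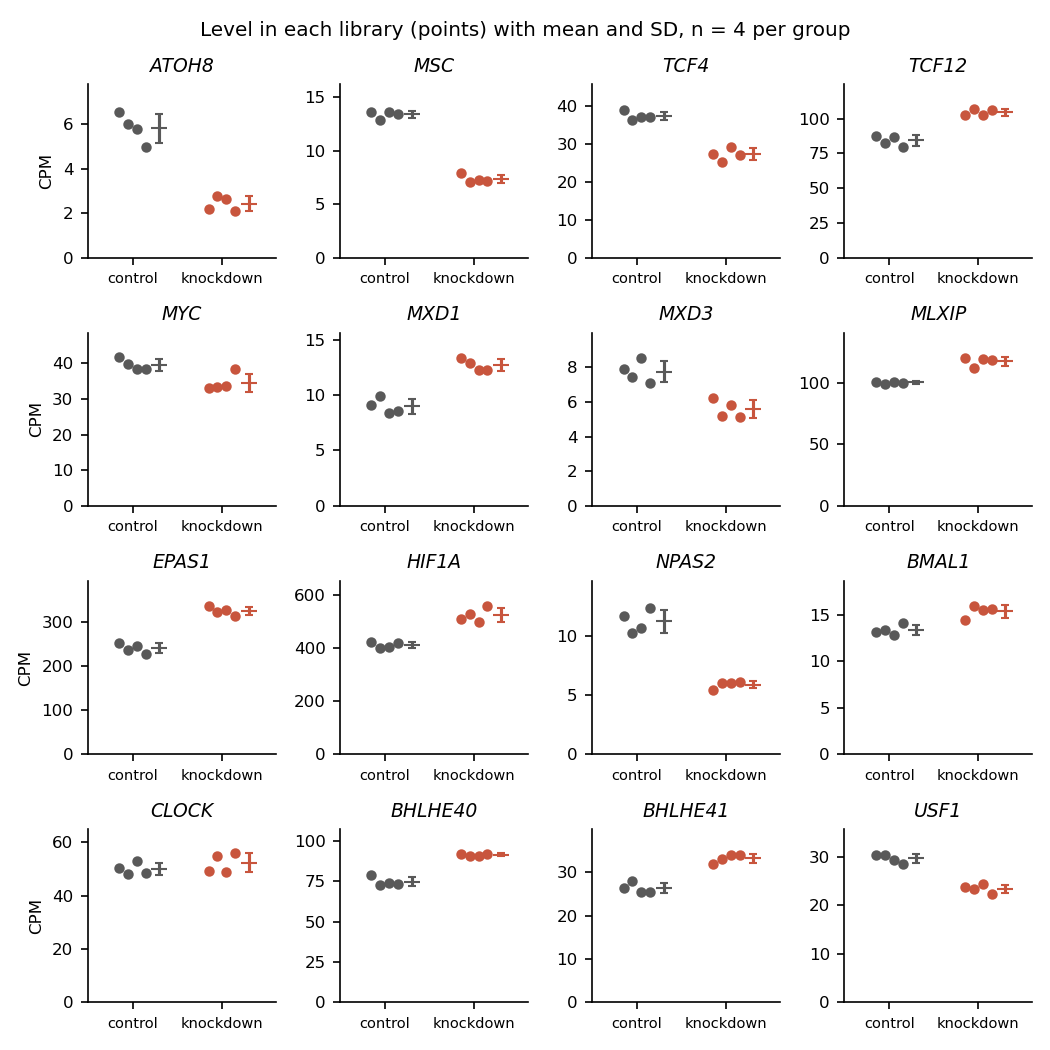
Level in CPM of 16 bHLH genes in each library, with the mean and SD of the 4 libraries of a group beside the points; every axis starts at 0. The groups are apart in each panel except CLOCK, and for MYC knockdown replicate 4 lies just under the lowest control library.

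In the MYC and MAX network, MYC fell slightly and several of the MAX-bound repressors rose. Of 12 members 11 were tested, of which 6 rose and 4 fell, with MAX not called. Over all genes tested 25.2% were higher and 25.9% lower, and among those with a mean of at least 10 CPM 62.1% were called. MYC, the growth-promoting partner of MAX, had 41.7, 39.7, 38.3 and 38.3 CPM in control and 32.9, 33.2, 33.5 and 38.3 CPM after knockdown. Knockdown replicate 4 stood apart from the other 3 knockdown libraries and came within 0.1 CPM of the lowest control library. The log2 fold change was -0.20 (SE 0.050, adjusted p = 0.00154). The relatives of MYC were scarce: MYCN had 1 count in 1 knockdown library and 0 in the others and was not tested, and MYCL had 33 to 42 counts in control and 44 to 62 after knockdown. MYCL rose by a log2 fold change of 0.49 (SE 0.177, adjusted p = 0.0209) with overlapping groups. Its call was lost without control replicate 4 (adjusted p = 0.0744), knockdown replicate 2 (0.0671) or knockdown replicate 4 (0.0558).

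MAX, the shared partner, was not called. It had 53.8, 56.9, 57.0 and 54.1 CPM in control and 60.4, 59.8, 62.6 and 53.7 CPM after knockdown (log2 0.09, SE 0.043, adjusted p = 0.0744). Knockdown replicate 4 was the lowest of all 8 libraries, and without it MAX was called higher (log2 0.14, adjusted p = 0.00733). The 95% interval of the difference ran from 0.0043 to 0.182 on the log2 scale, before adjustment for the number of genes.

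The MXD proteins compete with MYC for MAX and recruit SIN3 corepressors. MXD1 had 9.07, 9.87, 8.41 and 8.54 CPM in control and 13.3, 12.9, 12.3 and 12.2 CPM after knockdown, with no overlap. It rose after knockdown (log2 0.50, SE 0.074, adjusted p = 1.99e-06). SNRNP27 overlaps the exons of MXD1 on the same strand (log2 -0.06, adjusted p = 0.389). It had 539 to 718 counts in control libraries, against a mean of 225.5 for MXD1. MXI1 (log2 0.24, SE 0.051) and MXD4 (log2 0.17, SE 0.042) rose as well, and their groups did not overlap. MXD3, in contrast, had 7.91, 7.43, 8.51 and 7.10 CPM in control and 6.24, 5.18, 5.81 and 5.14 CPM after knockdown. The groups were again apart, with MXD3 lower after knockdown (log2 -0.47, SE 0.096, adjusted p = 0.00016). Its exons overlap those of RAB24 (log2 -0.26) on the same strand and PRELID1 (log2 -0.38) on the opposite strand, both of which also fell and have more counts than MXD3. MNT, a MAX-bound repressor expressed in most cells, fell with overlapping groups (27.6 ± 0.701 to 25.2 ± 1.61 CPM, log2 -0.13, SE 0.052, adjusted p = 0.0341). Its call was lost without control replicate 1 or 4 or without knockdown replicate 2, 3 or 4 (adjusted p = 0.0571 to 0.125). MGA, which binds MAX and also carries a T-box, rose from 90.4 ± 4.42 to 99.9 ± 5.25 CPM (log2 0.14, SE 0.040, adjusted p = 0.00353), again with overlap. MYC over the summed MXD1, MXD3, MXD4, MXI1 and MNT, per kb, was 0.588 to 0.651 in control libraries. It was 0.462 to 0.478 in knockdown replicates 1 to 3 and 0.563 in knockdown replicate 4.

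MLX and MLXIP (MondoA), which pair to sense glucose phosphates, moved in opposite directions. MLXIP had 101.1, 99.03, 101.2 and 100.4 CPM in control and 120.1, 112.2, 119.7 and 118.8 CPM after knockdown, a rise in all 4 (log2 0.23, SE 0.033, adjusted p = 1.36e-06). MLX fell from 31.4 ± 0.911 to 27.7 ± 1.01 CPM (log2 -0.18, SE 0.047, adjusted p = 0.002), also without overlap. The gene PSMC3IP shares exon sequence with MLX on the opposite strand and had a log2 fold change of 0.05 (adjusted p = 0.526). Of 4 tested genes listed as glucose-response targets of this pair, ARRDC4 (9.42 to 14.7 CPM, log2 0.65, SE 0.073) and TXNIP, an inhibitor of glucose uptake (98.0 to 122 CPM, log2 0.31, SE 0.035), rose. ARRDC3 fell (log2 -0.48, SE 0.041), and PFKFB3 had a log2 fold change of 0.00 (SE 0.031). MLXIPL (ChREBP), the relative of MLXIP known from liver, had 2 to 11 counts in control and 23 to 42 after knockdown and rose (log2 2.32, SE 0.328, adjusted p = 7.97e-07).

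Among the other leucine zipper factors, USF1 fell. USF1 and USF2 are broadly expressed and bind CACGTG as a pair. USF1 had 30.4, 30.3, 29.4 and 28.4 CPM in control and 23.7, 23.3, 24.3 and 22.3 CPM after knockdown. The groups were apart by more than 4 CPM (log2 -0.34, SE 0.049, adjusted p = 9.91e-07). USF2 had 39.1, 40.4, 39.4 and 39.9 CPM in control and 44.3, 41.4, 40.4 and 45.6 CPM after knockdown. The groups touched, and the rise (log2 0.11, SE 0.045, adjusted p = 0.0368) was lost when any 1 library other than knockdown replicate 2 or 3 was left out (adjusted p = 0.0504 to 0.154). MITF, of the family that controls pigment and lysosome genes, had 38.2 ± 0.818 CPM in control and 35.8 ± 1.34 CPM after knockdown (log2 -0.09, SE 0.044, adjusted p = 0.0798) and was called lower only without knockdown replicate 3 (log2 -0.12, adjusted p = 0.0388). TFAP4 (AP-4) had 4.57 ± 0.644 and 4.26 ± 0.931 CPM (log2 -0.10, SE 0.140, adjusted p = 0.574, 95% interval -0.39 to 0.19). Of 7 further genes of this kind, all tested, SREBF2, a regulator of cholesterol synthesis (log2 0.20, SE 0.035), TFEC (log2 1.36, SE 0.251, at 1.32 CPM after knockdown) and MLXIPL rose. SREBF1, a regulator of fatty acid synthesis, fell (log2 -0.22, SE 0.052) with overlapping groups.

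The hypoxia-inducible PAS factors rose. EPAS1 (HIF-2 alpha) had 253, 237, 245 and 227.2 CPM in control and 336, 322, 327 and 313 CPM after knockdown. Every knockdown library was at least 60 CPM above every control library, and the log2 fold change was 0.43 (SE 0.034, adjusted p = 1.04e-11). HIF1A (HIF-1 alpha) had 422, 398, 405 and 418 CPM in control and 508, 529, 497 and 559 CPM after knockdown, again with no overlap (log2 0.35, SE 0.034, adjusted p = 1.06e-09). HIF alpha subunits are controlled mainly through protein breakdown, which RNA counts do not measure. HIF1A over EPAS1, per kb, was 2.35 to 2.61 in control and 2.15 to 2.53 after knockdown, and these ranges overlap. ARNT, their usual partner, fell slightly (45.8 to 42.4 CPM, log2 -0.11, SE 0.042, adjusted p = 0.0308), a call lost without control replicate 2 (adjusted p = 0.0576), control replicate 4 (0.101) or knockdown replicate 1 (0.0977) and not made by DESeq2 (0.0758). ARNT2, the other partner, had 16.7 ± 0.626 and 17.1 ± 1.06 CPM (log2 0.03, SE 0.060, adjusted p = 0.693, 95% interval -0.09 to 0.16). SIM2, known from brain and muscle, had 27.9 ± 0.649 and 26.8 ± 0.428 CPM (log2 -0.06, SE 0.047, adjusted p = 0.295, 95% interval -0.16 to 0.04).

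Of 26 tested HIF target genes 14 rose and 3 fell, and the median log2 fold change of the list was 0.17. Over all genes tested 25.2% were higher and 25.9% lower. Among all genes with a mean of at least 10 CPM, 62.1% were called. NDRG1 (28.02 to 50.8 CPM, log2 0.86, SE 0.044), the carbonic anhydrase CA12 (36.7 to 63.3 CPM, log2 0.79, SE 0.044) and the prolyl hydroxylase EGLN3 (2.04 to 6.64 CPM, log2 1.70, SE 0.125) were the rises with the lowest adjusted p. The glycolytic enzyme PGK1 (log2 -0.18, SE 0.033), the hydroxylase EGLN1 (log2 -0.14, SE 0.035) and the crosslinker LOX (log2 -0.08, SE 0.033) fell. The LOX call was lost without control replicate 1, 3 or 4 or without knockdown replicate 1, 2 or 3 (adjusted p = 0.0512 to 0.153). Of the 9 genes of the HIF degradation machinery 3 rose and 3 fell. Beside EGLN3 these were ELOB (log2 0.17, SE 0.047) and VHL (log2 0.12, SE 0.037) among the rises, and ELOC (log2 -0.20, SE 0.038), CUL2 (log2 -0.17, SE 0.041) and EGLN1 among the falls. VHL was not called without knockdown replicate 3 (adjusted p = 0.0597).

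Among the circadian PAS factors NPAS2 fell to about as low a share of its control level as MSC did, while its paralog CLOCK was not called. NPAS2, which can take the place of CLOCK beside BMAL1, had 11.7, 10.2, 10.7 and 12.4 CPM in control and 5.42, 6.05, 6.03 and 6.09 CPM after knockdown. The groups were separated by more than 4 CPM. Its log2 fold change was -0.94 (SE 0.086, adjusted p = 2.92e-10), which left 52.2% of the control level, beside 41.7% for ATOH8. CLOCK had 50.3, 48.1, 52.9 and 48.5 CPM in control and 49.4, 54.8, 49.0 and 56.0 CPM after knockdown. The groups overlapped (log2 0.07, SE 0.046, adjusted p = 0.221, 95% interval -0.03 to 0.16). CLOCK also overlaps TMEM165 on the opposite strand (log2 -0.03, adjusted p = 0.531). TMEM165 had 2550 to 3228 counts in control libraries, against a mean of 1246 for CLOCK. With the strand setting not given, reads of these genes may not be separated. BMAL1, the partner of both, had 13.2, 13.4, 12.8 and 14.1 CPM in control and 14.5, 16.0, 15.5 and 15.6 CPM after knockdown, a small rise without overlap (log2 0.20, SE 0.063, adjusted p = 0.00842). CLOCK over NPAS2, per kb, was 4.15 to 5.23 in control and 8.63 to 9.76 after knockdown.

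Most of the listed clock feedback and output genes rose. Of 15 tested 9 rose and 1 fell, beside 25.2% higher and 25.9% lower over all genes tested. The median log2 fold change of the list was 0.28. The nuclear receptor gene NR1D1, which represses BMAL1, rose from 4.54 to 12.4 CPM (log2 1.45, SE 0.088, adjusted p = 3.58e-14). The period gene PER3 rose from 14.3 to 22.4 CPM (log2 0.64, SE 0.063), and RORA, which activates BMAL1, from 2.02 to 3.90 CPM (log2 0.95, SE 0.147). The labels give no time of day for the harvest of either group. Of 9 tested further PAS genes 3 rose and 5 fell. The aryl hydrocarbon receptor gene AHR (145 to 121 CPM, log2 -0.26, SE 0.032), SIM1 (log2 -0.73, SE 0.123) and BMAL2 (log2 -0.19, SE 0.038) were the falls with the lowest adjusted p, and the coactivator genes NCOA3 (log2 0.12, SE 0.037) and NCOA2 (log2 0.13, SE 0.040) and the low NPAS1 (log2 0.69, SE 0.259) made up the rises. NPAS1 lost its call without control replicate 1, 3 or 4 or without knockdown replicate 1, 3 or 4 (adjusted p = 0.0601 to 0.126).

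**Figure D3:**
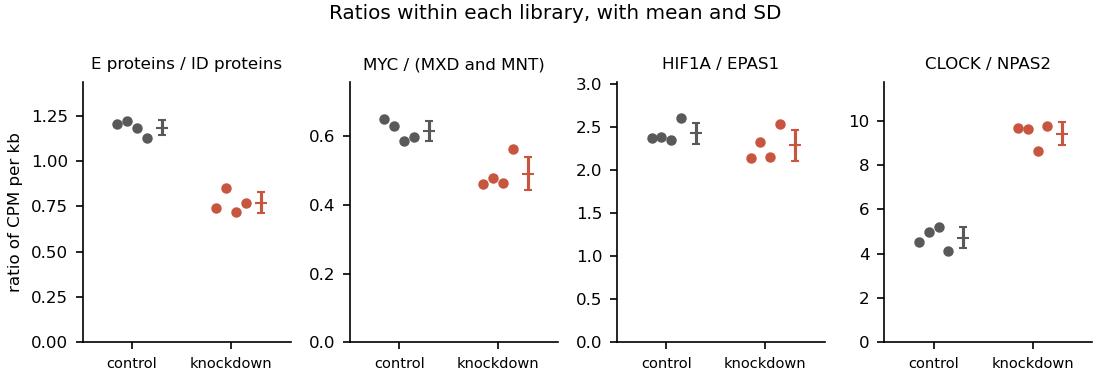
Ratio of summed levels, in CPM per kb of exon length, in each library with the mean and SD of each group (n = 4). CLOCK over NPAS2 goes from 4.15 to 5.23 in control to 8.63 to 9.76 after knockdown, E proteins over ID proteins is at most 0.852 after knockdown, and HIF1A over EPAS1 overlaps between the groups.

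Both DEC repressors, which act on clock E-boxes and respond to hypoxia, rose. BHLHE40 (DEC1) had 79.0, 72.6, 74.0 and 73.3 CPM in control and 91.9, 90.4, 90.7 and 92.1 CPM after knockdown. BHLHE41 (DEC2) had 26.4, 27.9, 25.5 and 25.5 CPM in control and 31.8, 33.1, 34.0 and 33.9 CPM after knockdown. Neither gene overlapped between the groups, and the log2 fold changes were 0.29 (SE 0.035, adjusted p = 7.47e-08) and 0.33 (SE 0.048, adjusted p = 1.05e-06). Of the HES and HEY members, a family known as targets of Notch, HES4 fell, HES6 rose and HEYL was not tested. HES4 had 25.6, 22.6, 23.1 and 23.2 CPM in control and 22.4, 20.8, 21.1 and 19.9 CPM after knockdown. The highest knockdown library lay just under the lowest control library (log2 -0.17, SE 0.055, adjusted p = 0.0123), and the call was lost without control replicate 1 (adjusted p = 0.0718). HES6, which opposes HES1, rose with overlapping groups (7.04 ± 0.563 to 8.24 ± 0.912 CPM, log2 0.23, SE 0.093, adjusted p = 0.042). That call was lost without control replicate 1 or 2 or without knockdown replicate 1 or 3 (adjusted p = 0.0889 to 0.183). HEYL had only 3 to 6 counts in control libraries and 5 to 11 after knockdown.

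Of 8 further HES and HEY genes 3 were tested, and HES2 rose from 1.12 to 2.77 CPM (log2 1.301, SE 0.179). HES1, the main Notch target in many cells, had 7.38 and 6.48 CPM (log2 -0.19, SE 0.090, adjusted p = 0.0809). Of 17 tested Notch and TLE genes 7 rose and 2 fell, beside 25.2% higher and 25.9% lower over all genes tested. The receptor genes NOTCH3 (1.87 to 4.84 CPM, log2 1.37, SE 0.132) and NOTCH1 (52.5 to 64.8 CPM, log2 0.30, SE 0.048) and the corepressor gene TLE3 (log2 0.31, SE 0.058) were the rises with the lowest adjusted p, and MAML2 (log2 -0.18, SE 0.045) and NOTCH2 (log2 -0.11, SE 0.033) fell. Of 10 tested corepressor and coactivator genes 8 rose and 1 fell. The corepressor gene NCOR1 (log2 0.24, SE 0.036) and the acetyltransferase gene CREBBP (log2 0.25, SE 0.039) were among the rises, and the deacetylase gene HDAC2 fell (187 to 139 CPM, log2 -0.42, SE 0.036).

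The listed MYC target genes were mostly lower. All 26 were tested, 14 fell and 4 rose, beside 25.9% lower and 25.2% higher over all genes tested. The median log2 fold change of the list was -0.14. Nucleolin (NCL, 632 to 472 CPM, log2 -0.42, SE 0.034), nucleophosmin (NPM1, 710 to 558 CPM, log2 -0.35, SE 0.030) and the chaperonin gene HSPD1 (543 to 426 CPM, log2 -0.35, SE 0.032) were the falls with the lowest adjusted p. The pyrimidine synthesis gene CAD (log2 0.26, SE 0.037), the polyamine synthesis gene ODC1 (log2 0.24, SE 0.038) and the nucleolar gene TCOF1 (log2 0.16, SE 0.036) rose. TERT, among the 14 falls (111 to 86.8 CPM, log2 -0.36), is also used as a transgene to immortalise lines of this kind. Its counts cannot be told apart from that source, so its fall may not bear on MYC. Of 47 further class II bHLH genes only 9 were tested, and 27 had no count in any control library. Of the 9, NHLH2 (1.12 to 3.70 CPM, log2 1.73, SE 0.171), TWIST2 (2 to 4 counts against 12 to 18, log2 2.64, SE 0.390) and the mesenchymal factor gene TWIST1 (6.43 to 8.37 CPM, log2 0.38, SE 0.088) rose, and none was called lower. SOHLH2, at 10 to 17 counts against 0 to 13, was not called (log2 -0.97, SE 0.458, adjusted p = 0.0886). It was called lower without knockdown replicate 3 (adjusted p = 0.0116) or without a filter on low counts (0.049).

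**Figure D4:**
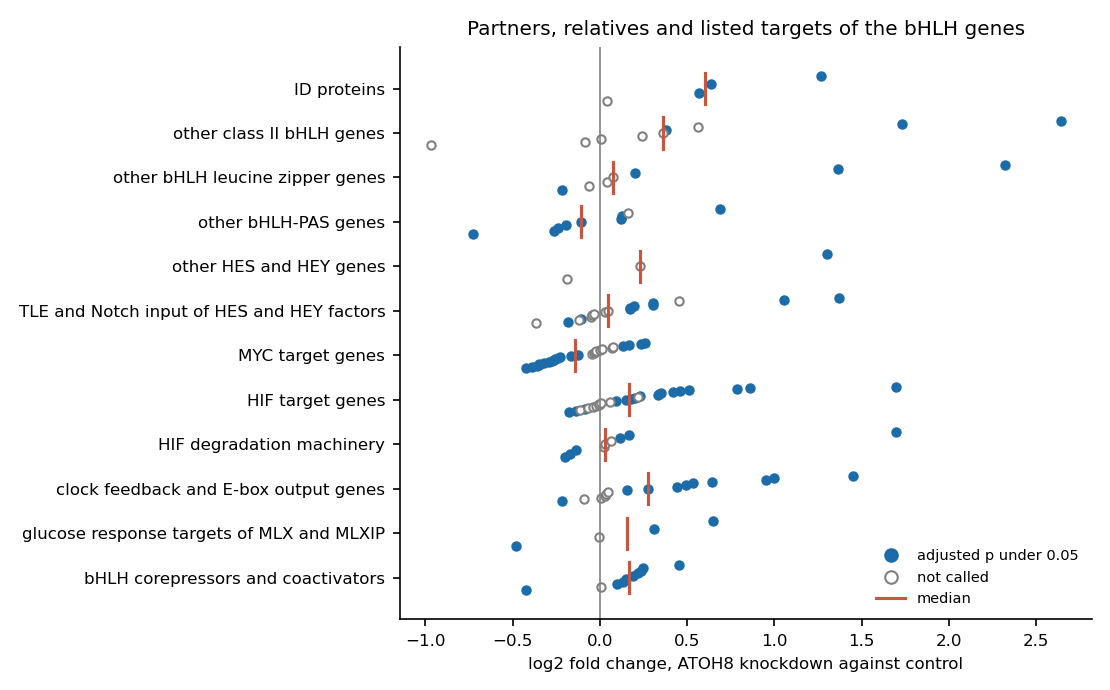
Log2 fold change of the tested genes in each list of partners, relatives and targets; filled points passed an adjusted p of 0.05, red bars are list medians and the grey line is the median of all genes tested (0.00). ID genes and clock output genes lie mostly to the right (medians 0.60 and 0.28), and MYC targets mostly to the left (median -0.14).

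Promoter sequence was examined for the E-box that many of these factors bind. RefSeq promoters (GRCh38.p14, 250 bases before to 50 after the start of the gene) were present in the table for 29 of the 34 members, and not for MSC, MYC, TFAP4, ARNT2 and SIM2. CANNTG, searched on both strands, occurred in 20 of the 29 (69.0%), near the 60.5% of the 11710 tested genes with a promoter. CACGTG, which is 1 form of CANNTG and reads the same on both strands, occurred in 6 of the 29 (20.7%), against 9.915% of tested genes with a promoter and 7.435% of all 27305 promoters. CAGCTG, the form preferred by many class II dimers, occurred in 6 (20.7%), against 17.0% of tested genes. The median share of G and C bases was 70.3% in member promoters and 65.3% in those of tested genes. The ATOH8 promoter held 3 CANNTG and no CACGTG. The 6 members with CACGTG were BHLHE40, BHLHE41, MLX, MNT, MXD4 and TCF12. All 6 passed the test, 4 higher and 2 lower, beside 26 of all 32 tested members. Their E-boxes are printed here with up to 20 bases on each side, 5′ to 3′ on the gene's strand and with CACGTG in capitals, because they show bHLH genes whose own promoters carry the letters that bHLH factors read. They lie at chr3:4979187-4979217 (BHLHE40, plus strand), chr12:26125060-26125105 (BHLHE41, minus), chr17:42567030-42567075 (MLX, plus), chr17:2401228-2401273 (MNT, minus), chr4:2262322-2262359 (MXD4, minus) and chr15:56917887-56917932 (TCF12, plus).
BHLHE40: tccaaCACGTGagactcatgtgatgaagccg
BHLHE41: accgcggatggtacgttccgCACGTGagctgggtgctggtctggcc
MLX: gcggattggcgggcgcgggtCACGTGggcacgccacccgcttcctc
MNT: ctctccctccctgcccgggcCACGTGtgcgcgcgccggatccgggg
MXD4: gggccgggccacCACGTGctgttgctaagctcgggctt
TCF12: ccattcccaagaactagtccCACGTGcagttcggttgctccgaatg

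The CACGTG of BHLHE41 and MLX begins 48 and 50 bases before the start of the gene, and the others begin 183 to 245 bases before it. Among the listed MYC targets 12 of 23 promoters (52.2%) held CACGTG, among the clock genes 3 of 14 (21.4%) and among the HIF targets 2 of 22 (9.09%). The clock gene PER1, a known target of CLOCK and BMAL1 that rose from 6.10 to 8.56 CPM (log2 0.49, SE 0.094), holds 1 CACGTG at chr17:8152552-8152597 (minus strand), shown for comparison with the DEC genes.
PER1: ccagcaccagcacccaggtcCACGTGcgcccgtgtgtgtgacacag

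The levels of the bHLH genes spanned several orders of magnitude. Per kb of exon length, HIF1A was the highest in control libraries (79.7 ± 2.18 CPM per kb, SD, n = 4), followed by EPAS1 (32.9 ± 1.49), HES4 (21.1 ± 1.22) and BHLHE40 (19.5 ± 0.762). The libraries of HES4 and BHLHE40 overlapped, so their order is not resolved, whereas HIF1A and EPAS1 did not overlap with their neighbours below. MYC (13.2 ± 0.533), USF1 (12.7 ± 0.401) and MAX (12.5 ± 0.399) overlapped with each other and lay above TCF3 (11.3 ± 0.199). The median over 16776 tested genes with a length was 4.13 CPM per kb, and CLOCK, at rank 19, was the lowest member above it. ATOH8 (0.960 ± 0.109) ranked 28 of 34 and overlapped with NPAS2 (0.903 ± 0.0782), and below them were TFAP4, MYCL, HAND2, HEYL and MYCN. In knockdown libraries BHLHE40 (23.8 ± 0.224) passed HES4 (18.9 ± 0.913), MSC went from rank 15 to 21, USF1 from 6 to 10 and ATOH8 from 28 to 31. TCF4 depends most on the length used, with 1.34 CPM per kb over the union of its exons and 4.48 over its longest transcript.

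**Figure D5:**
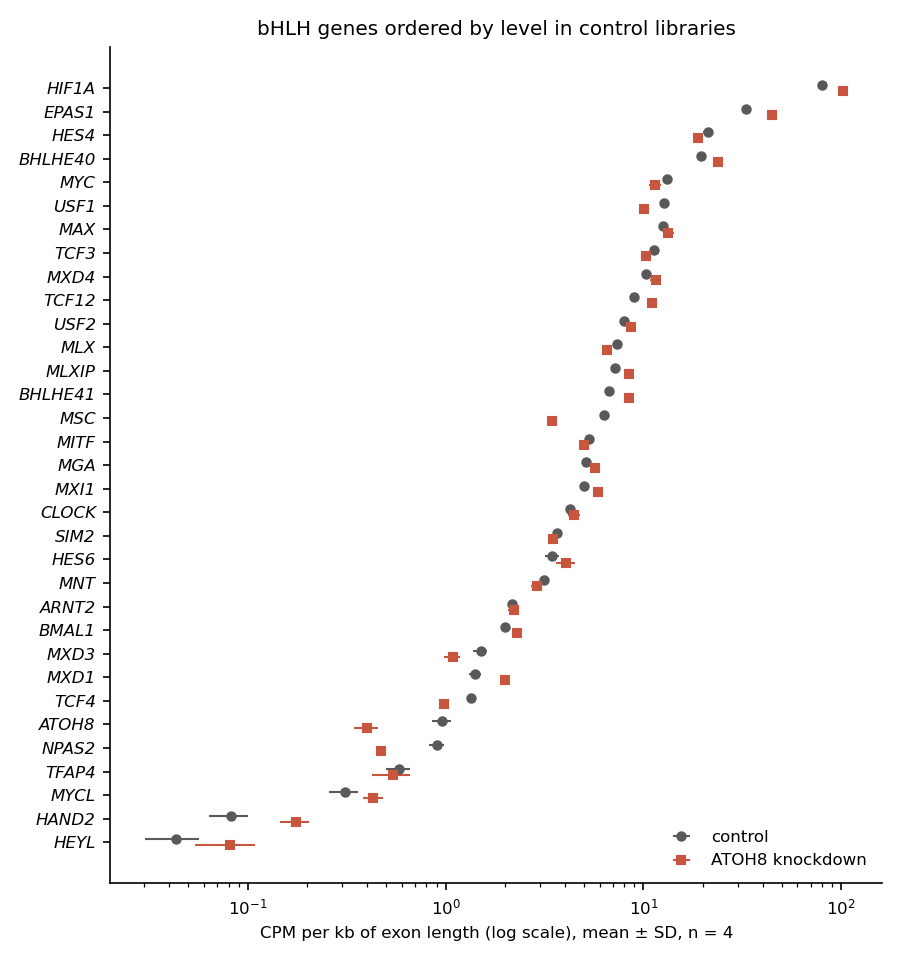
Level in CPM per kb of exon length on a log axis for the 33 members with a count in control libraries, ordered by the control mean, with the SD of 4 libraries. HIF1A and EPAS1 lead in both groups, and ATOH8, NPAS2 and MSC show the widest steps from control (circles) to knockdown (squares) among the members that fell.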

How the data were processed

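Counts per gene from 8 RNA-seq libraries were used as the authors deposited them, as whole-number raw read counts. The build hg19 and the tools STAR, featureCounts, FastQC and DESeq2 are named, without roles, per the submitters' processing notes. The sources used here give no versions, annotation or strand setting. Of 60609 rows, 1 with a missing cell and 44 pseudoautosomal Y copies with 0 counts were left out. Symbols came from a name table (60295 genes) and GENCODE 29 (250), which also gave exon lengths and overlapping genes. GENCODE 29 describes GRCh38, so no coordinates were taken from it.

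Genes passing filterByExpr were scaled by TMM and tested across all genes with edgeR 4.0.16 (quasi-likelihood F test, limma 3.58.1, R 4.3.3), knockdown against control, adjusted by Benjamini-Hochberg, with 0.05 as the threshold. The SE of a log2 fold change came from the F statistic. Tested on simulated data for this comparison (16679 genes, 200 changed), the fit found 93 of 100 genes with a 2-fold change, 70 of 100 with a 1.3-fold change, and 1.81% of 166 calls were false. The simulation changed a far smaller share of genes than the 51.1% called in the data. Its rates may therefore not hold for the data. Libraries of a group differed by more than sampling noise (chi-square per gene 1.89 to 4.42). Promoters were RefSeq's, for GRCh38.p14. In 17 of 29 members the 30 bases after the start matched a GENCODE transcript in sense, and 0 matched in antisense.

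Alternatives were DESeq2 1.42.0, its size factors in edgeR, other filters on low counts, the replicate number as a block and the omission of each library. The members, the related and marker lists, the tests and the naming rule (all members, then up to 3 rises and 3 falls per list by adjusted p) were chosen with earlier results of these data known. PER1, PECAM1, PTPRC, CD68, MCAM, EHD3, AQP1, KIRREL1, CD2AP, SYNPO, NPHS1, TCF21, MS4A1, HES1, ID2, PFKFB3, ARNT, TERT, SOHLH2 and overlapping genes were named beside that rule. Some genes that the rule selects are not reported here.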

Additional observations from a re-analysis of the deposited data

Results flagged for a closer look

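Of 78 sets of 4 libraries examined (64 of member levels and 14 of ratios), 7 had 1 library set apart from the other 3 by Dixon's criterion, beside about 1 in 20 that chance gives. The ratios are built largely from the same member levels, so the sets are not independent and the 7 cannot be weighed against that rate. Knockdown replicate 4 stood out for MYC, at 38.3 CPM against 32.9 to 33.5 in the other 3, and for MYC over the MXD and MNT sum, at 0.563 against 0.462 to 0.478. Control replicate 1 stood out for MLX, at 32.8 CPM against 30.9 to 31.2. Knockdown replicate 2 stood out for MLXIP, at 112.2 CPM against 118.8 to 120.1. Knockdown replicate 1 stood out for NPAS2, at 5.42 CPM against 6.03 to 6.09. Control replicate 4 stood out for HIF1A over EPAS1, at 2.61 against 2.35 to 2.38, and knockdown replicate 3 for CLOCK over NPAS2, at 8.63 against 9.61 to 9.76. MYC, MLX, MLXIP and NPAS2 were called in the same direction without any 1 of the 8 libraries.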

How the results depend on the processing

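Of 26 called members 21 kept their direction and call under all alternatives that tested them, and MYCL, MNT, USF2, HES4 and HES6 lost the call under at least 1. No called member changed direction. Counts of called members ran from 12 to 16 higher and from 9 to 11 lower, the lowest rise count with DESeq2, and from 13 to 14 and 9 to 11 when 1 library was left out. DESeq2 did not call MYCL (adjusted p = 0.0573), MNT (0.0917), USF2 (0.0651) and HES6 (0.0935), nor ID4 (0.0647), ARNT (0.0758) and NPAS1 (0.0511) among the related genes named. Without a filter on low counts USF2 (0.0694) and HES6 (0.0573) were lost, and with at least 1 CPM in 4 libraries LOX was (0.052). Deviations of same-numbered libraries correlated weakly across genes (-0.00671 to 0.054), beside -0.0873 to 0.0452 for different numbers. Such small values do not settle whether the replicate numbers pair the samples. With the replicate block 16 members rose and 11 fell, MAX being added (adjusted p = 0.0458). All genes then gave 4336 and 4466 calls, beside 4253 and 4372 without it. The share of member promoters with an E-box was 20.7% for CACGTG alone and 20.7% for CAGCTG alone, in place of 69.0% for CANNTG. With the longest transcript as length 24 of 33 neighbouring pairs kept their order. Low counts limit HAND2, MYCL, HEYL and MYCN.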
